A study of Mus musculus with 12 samples.

Results

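Oxidases that make superoxide or hydrogen peroxide, the inducible nitric oxide synthase and one peroxide-removing enzyme were followed in rectal RNA of mice with and without colitis and with and without berberine (BBR), a plant alkaloid. The group was defined by gene symbol and held 10 of the 17734 genes in the expression table: Duox2, Duoxa2, Duox1, Nos2, Nox1, Noxo1, Noxa1, Cyba, Cybb and Gpx2. Of these, 9 passed the filter on low values and were tested among 15315 genes, and Duox1 did not. The study asked how oral BBR acts on experimental colitis, and RNA was sequenced from 12 male C57BL/6 mice aged 8 to 10 weeks, in 4 groups of 3. Normal mice received neither agent, colitis mice drank 2.5% dextran sulfate sodium (DSS, a polymer that injures the bowel lining) for 7 days, normal BBR mice received BBR by gavage and colitis BBR mice received both. No genetic change is stated for any group. The BBR dose was 100 mg/kg per day. Its length differs between sources, 7 days in the study's methods and 6 in the labels, which call the tissue colorectum.

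The epithelium of the large bowel produces reactive oxygen and nitrogen species on purpose. DUOX2 sits in the apical membrane and releases hydrogen peroxide into the lumen, but it leaves the endoplasmic reticulum only with its maturation factor DUOXA2. NOX1 makes superoxide in colon epithelium, and needs the membrane partner CYBA, the organizer NOXO1 and the activator NOXA1. CYBB is the phagocyte counterpart of NOX1 and shares CYBA with it, NOS2 makes nitric oxide from arginine, and GPX2 is a glutathione peroxidase of gut epithelium that reduces hydrogen peroxide.

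Values are FPKM, reads scaled to transcript length and library depth, so levels can be set side by side between genes. The sources used here do not name the unit, which was inferred from the column totals and could also be TPM. Fold changes are differences of mean log2(FPKM + 0.1), which understates the change of low genes. They come from limma fits over all 12 mice, adjusted over all genes by the Benjamini-Hochberg method. With 3 mice a group, the smallest p of an exact permutation test is 0.1.

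The 4 mice numbered 4, one in each group, stood apart from the other 8. Their columns summed to 482194 to 504337 FPKM, against 696286 to 765876 in the mice numbered 1 to 3. Results that rest on them are given with and without them. All 11 epithelium markers (Epcam, Cdh1, keratins and others) were above 0 in every mouse, with summed FPKM of 7241 to 13850, and none of the 11 passed the adjusted limit of 0.05 in any of the 6 comparisons. Smooth muscle markers summed to 1628 to 4839 FPKM in the mice without DSS and to 70.9 to 651 in 5 of the 6 mice with DSS. The colitis BBR mouse numbered 4 had 3435. Of 8 neutrophil markers, Ly6g carried most of the sum, at 259 to 793 FPKM without DSS and 488 to 3710 with DSS. The other 7 summed to 0.32 to 2.58 FPKM without DSS and to 198 to 494 in the 4 mice with DSS numbered 1 to 3, against 45.8 in the colitis mouse and 2.55 in the colitis BBR mouse numbered 4. In bulk tissue, fewer cells of a type and less RNA per cell cannot be told apart.

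Promoter sequences are shown for 3 members on which the results turn: the neighbouring genes Duox2 and Duoxa2, whose levels rose together, and Nox1, which fell. They run 5′ to 3′ from 250 bases before to 50 after the RefSeq start on GRCm38.p6, a later build than the mm9 named in the submitters' processing notes. RefSeq windows were matched for 9 of the 10 members. The Duox2 window is chr2:122298178-122298477 on the minus strand, the Duoxa2 window is chr2:122298650-122298949 on the plus strand, and the Nox1 window is chrX:134111805-134112104 on the minus strand. Capitals mark matches to any of 4 motifs searched on both strands, counting overlaps.
Duox2: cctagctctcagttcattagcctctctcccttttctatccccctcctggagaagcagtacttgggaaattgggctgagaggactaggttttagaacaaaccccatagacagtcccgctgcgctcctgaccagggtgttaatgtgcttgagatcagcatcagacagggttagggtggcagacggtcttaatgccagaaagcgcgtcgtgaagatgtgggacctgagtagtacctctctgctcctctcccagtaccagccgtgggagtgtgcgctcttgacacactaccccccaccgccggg
Duoxa2: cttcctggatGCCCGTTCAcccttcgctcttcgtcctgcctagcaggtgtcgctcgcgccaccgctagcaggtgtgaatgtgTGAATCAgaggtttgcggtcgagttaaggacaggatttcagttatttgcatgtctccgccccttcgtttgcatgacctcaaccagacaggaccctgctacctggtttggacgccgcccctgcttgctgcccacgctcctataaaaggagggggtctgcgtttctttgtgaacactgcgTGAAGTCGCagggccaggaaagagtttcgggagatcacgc
Nox1: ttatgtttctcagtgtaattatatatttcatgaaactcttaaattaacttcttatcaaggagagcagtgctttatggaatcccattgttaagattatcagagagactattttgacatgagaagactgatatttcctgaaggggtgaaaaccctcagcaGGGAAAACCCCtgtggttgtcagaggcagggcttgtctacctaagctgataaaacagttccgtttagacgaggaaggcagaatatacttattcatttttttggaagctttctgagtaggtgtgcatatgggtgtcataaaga
The Duox2 and Duoxa2 starts lie head to head, 673 bases apart. The Duoxa2 window held an AP-1 match (TGANTCA) at position -168 from the start, a motif found in 7.81% of 32851 such windows. It also held antioxidant response element core matches (TGANNNNGC) at -240 and 10, a motif found in 41.3% of windows. The Nox1 window held overlapping NF-kappaB matches (GGGNNNNNCC) at -92 and -91, and 50.8% of windows hold that motif. The Duox2 window held no match to these letters or to the STAT motif TTCNNNGAA, which is in 8.3% of windows. A match is a description of the letters only.

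**Figure D1:**
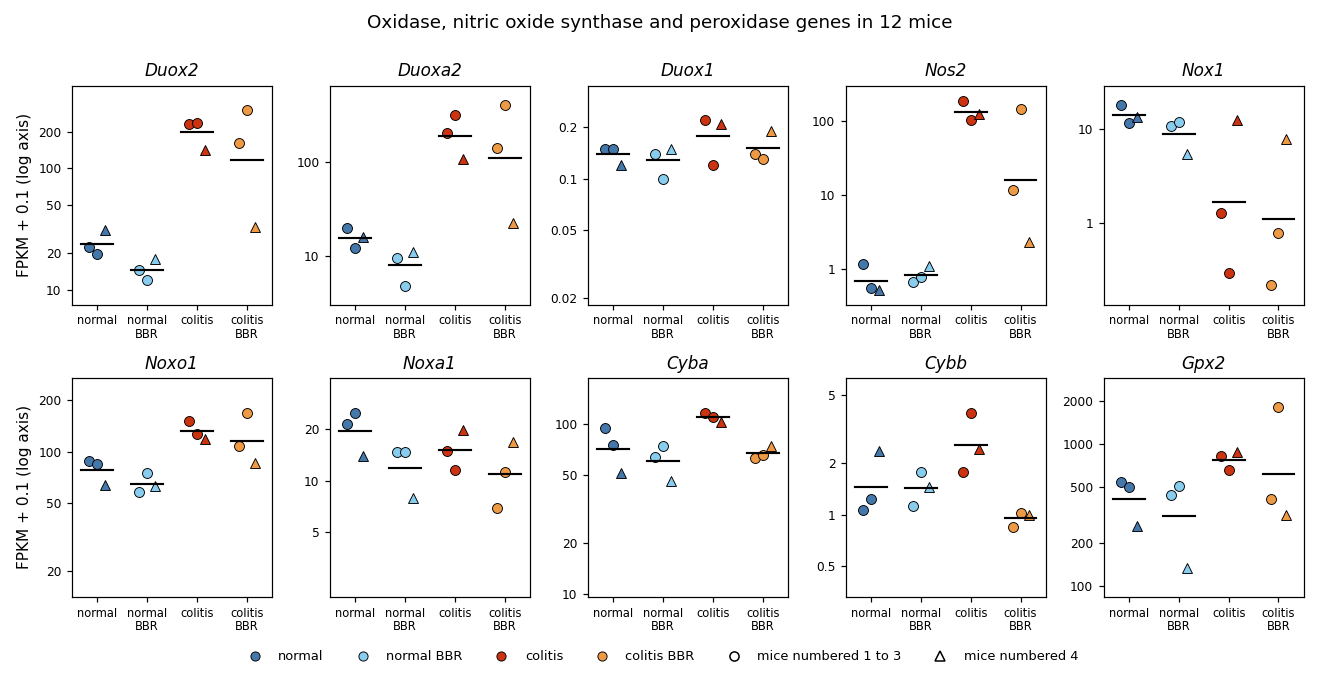
FPKM + 0.1 of the 10 genes in each of 12 mice, on log axes whose range differs between panels, with circles for mice numbered 1 to 3, triangles for mice numbered 4 and bars for the mean on the log scale (n = 3). Duox2, Duoxa2 and Nos2 were higher in all 6 mice with DSS than in all 6 without, while the high Nox1 values with DSS are those of the mice numbered 4.

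Colitis against normal asks what DSS did in the absence of BBR. Duox2 and Nos2 rose, 2 of the 9 members tested, against 1.08% of all genes past the adjusted limit. Members whose 3 colitis mice all lay above the 3 normal mice numbered 6 of 9, against 7.1% of all genes. These were Duox2, Duoxa2, Nos2, Noxo1, Cyba and Gpx2. The median log2 fold change was 0.81 over the 9 members and -0.32 over all genes. Colitis BBR against normal BBR asks the same in mice that received BBR and shares no mouse with the first comparison. No member passed the adjusted limit there, which 0.0392% of genes did, while Duox2, Duoxa2, Nos2 and Noxo1 lay wholly above normal BBR, 4 of 9 against 2.26% of genes. Without the colitis BBR mouse numbered 4, Duox2, Duoxa2 (4.96, adjusted p = 0.00201), Nos2 and Noxo1 (1.06, adjusted p = 0.029) passed it as higher and Nox1 (-4.41, adjusted p = 0.0368) as lower, in log2 fold changes, and 2255 genes passed in all. Averaged over mice with and without BBR, the effect of DSS passed the limit for 5 of 9 members, against 14.3% of all genes. Duox2, Duoxa2, Nos2 and Noxo1 rose and Nox1 fell.

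Duox2, the apical peroxide source, measured 22.3, 19.6 and 31.0 FPKM in normal mice 1, 3 and 4, and 230.2, 236.7 and 139.7 in colitis mice 1, 2 and 4. All 3 colitis mice were above all normal mice, and the mouse numbered 4 was the lowest of its group. The log2 fold change was 3.04 ± 0.61 (SE, n = 3), with an adjusted p of 0.0421, and it passed the limit in 1 of 6 fits from which a mouse of these groups was left out, the one without colitis mouse 4. In normal BBR mice 1, 3 and 4 the values were 14.6, 12.1 and 17.7 FPKM, and in colitis BBR mice 2, 3 and 4 they were 161, 298 and 32.5. These groups did not overlap either, but the colitis BBR mouse numbered 4 was close to the normal mouse numbered 4. The log2 fold change there was 2.98 ± 0.61 with an adjusted p of 0.150, and 3.90 with an adjusted p of 0.000765 without that mouse. Averaged over BBR, DSS raised Duox2 by 3.01 ± 0.43 on the log2 scale, with an adjusted p of 0.00576, and the 6 mice with DSS did not overlap the 6 without, which 0.816% of genes did in this direction. The exact permutation p within BBR state was 0.005, the smallest it can give.

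Duoxa2, without which DUOX2 does not mature, went from 19.9, 12.01 and 15.8 FPKM in normal mice to 206.8, 322.8 and 107.9 in colitis mice. The groups did not overlap. The change of 3.62 ± 0.82 on the log2 scale had an adjusted p of 0.0581. It passed the limit in 3 of 11 other settings and in 0 of 6 fits from which a mouse of these groups was left out. In normal BBR mice it measured 9.39, 4.68 and 10.8 FPKM, and in colitis BBR mice 144.5, 418.9 and 22.6. The mouse numbered 4 was again the lowest with DSS. The average effect of DSS was 3.72 ± 0.58, with an adjusted p of 0.00825. Among 11943 genes with a mean of at least 1 FPKM, Duoxa2 was the one most like Duox2 over the 12 mice, with a Pearson r of 0.990 on the log scale and 0.956 for deviations from the group means. The mice with and without DSS form separate clusters, so the first value includes the difference between them. The next genes by this measure were Gm14137 (r = 0.984, and 0.935 within groups) and S100a8 (r = 0.977, and 0.931 within groups). S100a8, a neutrophil gene, was listed at 0 in all 6 mice without DSS and entered the search only through the mice with DSS, so its first value is largely set by that split. The ratio of Duoxa2 to Duox2 FPKM was 0.511 to 0.891 in normal, 0.388 to 0.644 in normal BBR, 0.772 to 1.36 in colitis and 0.695 to 1.41 in colitis BBR mice. It overlapped between mice with and without DSS.

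**Figure D2:**
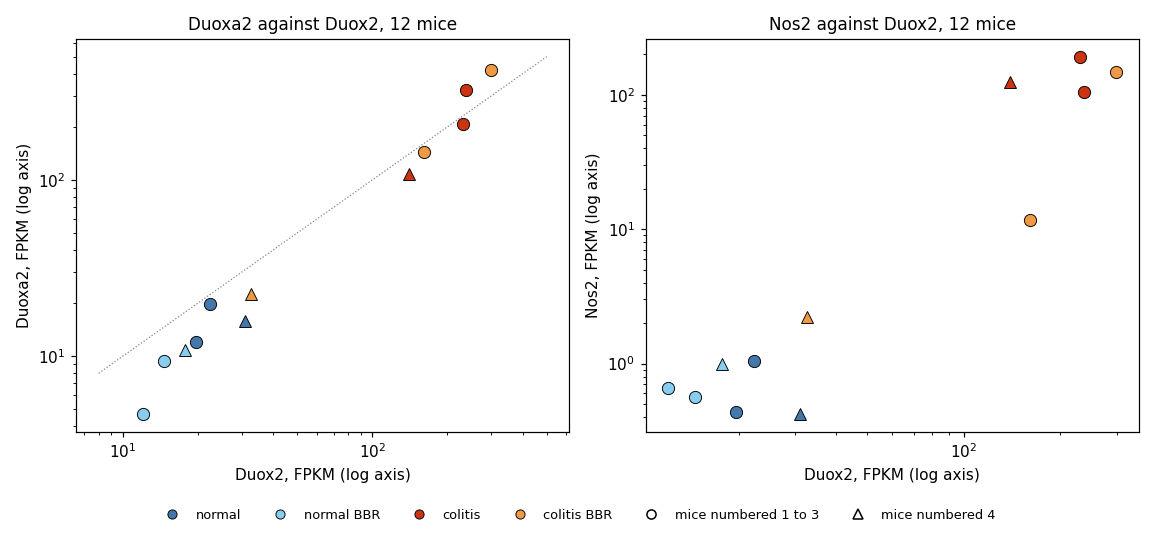
Duoxa2 (left) and Nos2 (right) against Duox2 in FPKM on log axes, 1 point per mouse, 12 mice, with circles for mice numbered 1 to 3, triangles for mice numbered 4 and a dotted line where Duoxa2 equals Duox2. Duoxa2 followed Duox2 from 4.68 to 418.9 FPKM, while 2 colitis BBR mice held Nos2 at 2.21 and 11.7 FPKM, between the mice without DSS and the others with DSS.

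Duox1, the relative of DUOX2 best known from airway and thyroid, was listed at 0 to 0.12 FPKM in all 12 mice. The worth of 3 reads, estimated from steps between low values, was 0.0279 to 0.0404 FPKM for this gene, which covers counting error only. Its mean lay below the filter of 0.1 FPKM, so it was not tested, and its values overlapped between colitis (0.02 to 0.12) and normal mice (0.02 to 0.05). Its maturation factor Duoxa1 measured 0.06 to 0.16 FPKM in normal and 0.15 to 0.69 in colitis mice, and passed the filter only through the mice with DSS, so no test is given.

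Nos2, the inducible nitric oxide synthase, had the highest log2 fold change of the members in colitis against normal. It measured 1.05, 0.44 and 0.42 FPKM in normal mice 1, 3 and 4 and 192.2, 105.2 and 125.2 in colitis mice 1, 2 and 4. The colitis mouse numbered 4 lay within the range of its group. The log2 fold change was 7.64 ± 1.08, with an adjusted p of 0.0125, and the ratio of the group means was 221. Without colitis mouse 2 or 4 the call held, and without any 1 of the other 4 mice of these groups the adjusted p was 0.0551 to 0.0741. Normal BBR mice had 0.56, 0.66 and 0.99 FPKM, in the range of normal mice. Colitis BBR mice 2, 3 and 4 had 11.7, 147.8 and 2.21 FPKM. One mouse was thus at the level of the colitis group and the other two were below it, while all 3 were above normal BBR. The log2 fold change of colitis BBR against normal BBR was 4.28 ± 1.08, with an adjusted p of 0.205. Without the colitis BBR mouse numbered 4 it was 5.67 with an adjusted p of 0.00773, and without the one numbered 3 it was 2.67 with 0.407. The average effect of DSS was 5.96 ± 0.76, with an adjusted p of 0.00324.

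Colitis BBR against colitis asks what BBR did in mice with DSS. Nos2 had a log2 fold change of -3.10 ± 1.08 there, with an unadjusted p of 0.0142 and an adjusted p of 0.608, and the groups overlapped. Without the colitis BBR mouse numbered 3 it was -4.71 with an adjusted p of 0.0157, and without the one numbered 4 it was -1.71 with 0.475. The interaction, the difference between the BBR effects with and without DSS, was -3.35 ± 1.52, with an unadjusted p of 0.0486 and an adjusted p of 1.0. For the interaction, 2 of 9 members (Nos2 and Cybb) had an unadjusted p of at most 0.05, against 2.42% of all genes, and no gene passed the adjusted limit. The 7 neutrophil markers other than Ly6g summed to 218, 198 and 2.55 FPKM in colitis BBR mice 2, 3 and 4, which was lowest in the mouse with the lowest Nos2 but did not follow Nos2 between the other two. The part of neutrophils in the Nos2 values was not tested. The genes most like Nos2 over the 12 mice were Plet1 (r = 0.990), Dmgdh (r = 0.975) and Ltf (r = 0.972), and for deviations from the group means these were 0.953, 0.900 and 0.851. All 3 reached the mean of 1 FPKM only through the mice with DSS, so the first values are largely set by that split. Plet1 measured 0.55 to 1.03 FPKM without DSS, 175 to 690.2 in colitis mice, and 2.32 to 442.6 in colitis BBR mice.

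Nox1, the superoxide source of colon epithelium, was the one member whose average effect of DSS passed the limit as lower. It measured 17.8, 11.4 and 13.3 FPKM in normal mice 1, 3 and 4, and 10.6, 11.7 and 5.34 in normal BBR mice 1, 3 and 4. In colitis mice 1, 2 and 4 it measured 1.19, 0.20 and 12.2 FPKM, and in colitis BBR mice 2, 3 and 4 it measured 0.12, 0.69 and 7.73. The 4 mice with DSS numbered 1 to 3 thus lay at 0.12 to 1.19 FPKM, and the mice numbered 4 lay at 7.73 and 12.2, within the range without DSS. Colitis against normal gave a log2 fold change of -3.06 ± 1.30, with an adjusted p of 0.207. The average effect of DSS was -3.03 ± 0.92, with an adjusted p of 0.0487, which rose above 0.05 in 10 of 12 fits from which a mouse was left out. The 2 fits that kept the call were those without the colitis or the colitis BBR mouse numbered 4. The genes most like Nox1 over the 12 mice were Hdac2 (r = 0.984), Htr4 (r = 0.983) and Map3k5 (r = 0.982), and within groups these were 0.982, 0.969 and 0.971. With DSS the mice numbered 4 lay far above the others for Nox1, so the within-group values include that difference. Htr4, a serotonin receptor, measured 2.79 to 6.72 FPKM without DSS and 0.27 to 3.55 with DSS.

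The effect of DSS on Nox1 differed between the mice numbered 4 and the others. In a fit with a separate DSS effect for the mice numbered 4, chosen after the values were seen, it was -4.64 ± 0.51 in mice 1 to 3, with an adjusted p of 0.000661, and 0.20 ± 0.72 in mice 4, with an adjusted p of 0.937. Of the 9 members, 6 passed the limit in mice 1 to 3, against 50.7% of all genes. The difference was 4.84 ± 0.88, with an adjusted p of 0.045. Noxa1, the activator, also differed, by 1.58 ± 0.30 with an adjusted p of 0.0452, and the other 7 members did not pass the limit. Differences past the limit were 2 of 9 among the members and 2.04% among all genes. Nothing in the labels says what sets the mice numbered 4 apart. Summed smooth muscle markers were 651.3 FPKM in the colitis and 3435 in the colitis BBR mouse numbered 4, against 70.9 to 649 in the other mice with DSS, and their part in the Nox1 values was not tested.

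Of the partners of NOX1, Noxo1 rose with DSS averaged over BBR, while Noxa1 and Cyba passed the limit only under other settings. Noxo1, the organizer, measured 87.7, 85.0 and 64.2 FPKM in normal, 58.2, 74.9 and 62.8 in normal BBR, 150.5, 126.4 and 119.5 in colitis, and 108, 169.3 and 85.7 in colitis BBR mice. Each group with DSS lay above its own control group, and 1 colitis BBR mouse overlapped the normal mice. The average effect of DSS was 0.79 ± 0.18, with an adjusted p of 0.0241. It passed the limit in all 10 other settings run and in 6 of 12 fits from which a mouse was left out. The ratio of Nox1 to Noxo1 FPKM was 0.0851 to 0.207 in the mice without DSS and 0.00111 to 0.102 with DSS, where the mice numbered 4 had the highest ratios.

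Noxa1 measured 21.5, 25.0 and 13.9 FPKM in normal, 14.6, 14.6 and 7.79 in normal BBR, 15.0, 11.5 and 19.7 in colitis, and 6.80, 11.1 and 16.8 in colitis BBR mice. The mouse numbered 4 was the lowest in both groups without DSS and the highest in both groups with DSS. The average effect was -0.25 ± 0.26, with an adjusted p of 0.472. Its direction turned to 0.07 under quantile normalization and to 0.14 with each mouse centred on its median. In the mice numbered 1 to 3 alone it was -0.78, with an adjusted p of 0.021. In the fit with a separate effect for the mice numbered 4 it was -0.78 ± 0.17 in mice 1 to 3, with an adjusted p of 0.00625 and beside a median of -0.49 over all genes, and 0.80 ± 0.24 in mice 4, with an adjusted p of 0.333.

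Cyba, the membrane subunit shared by NOX1 and CYBB, measured 93.8, 74.9 and 51.2 FPKM in normal, 63.9, 74.0 and 46.4 in normal BBR, 115.9, 109.8 and 102.9 in colitis, and 62.7, 65.6 and 74.4 in colitis BBR mice. The colitis mice lay above the other 3 groups. Colitis against normal gave 0.62 ± 0.24, with an adjusted p of 0.177. Colitis BBR against colitis gave -0.70 ± 0.24, with an unadjusted p of 0.0135 and an adjusted p of 0.597. Colitis BBR against normal BBR gave 0.16 ± 0.24, with an adjusted p of 0.682. The average effect of DSS was 0.39 ± 0.17, with an adjusted p of 0.115, and it passed the limit under quantile normalization (0.50, adjusted p = 0.0434) and with median centring (0.79, adjusted p = 0.0432).

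**Figure D3:**
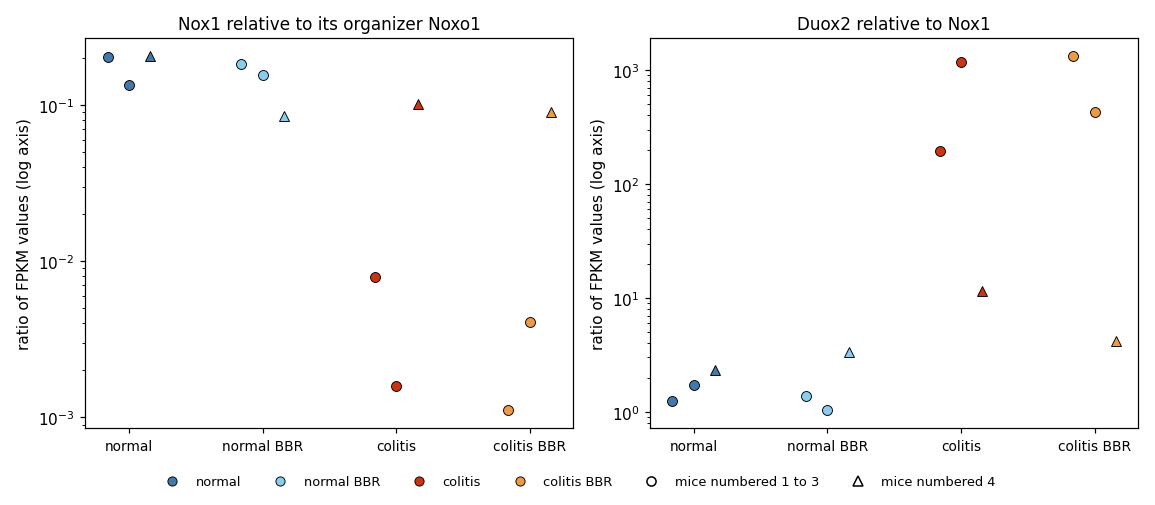
Ratio of Nox1 to Noxo1 FPKM (left) and of Duox2 to Nox1 FPKM (right) in each of 12 mice by group, on log axes, with circles for mice numbered 1 to 3 and triangles for mice numbered 4. Duox2 was 1.03 to 3.32 times Nox1 without DSS, 4.21 and 11.5 times in the mice with DSS numbered 4, and up to 1340 times in the others.

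Cybb, the oxidase of neutrophils and macrophages, was low throughout. It measured 0.97, 1.13 and 2.27 FPKM in normal, 1.03, 1.67 and 1.35 in normal BBR, 1.67, 3.86 and 2.32 in colitis, and 0.75, 0.92 and 0.90 in colitis BBR mice. All 3 colitis BBR mice lay below all colitis mice and below all normal BBR mice, as 18% of all genes did in the latter comparison, and colitis overlapped normal. Colitis BBR against colitis gave a log2 fold change of -1.43 ± 0.39, with an unadjusted p of 0.00358 and an adjusted p of 0.486. The interaction was -1.40 ± 0.56, with an unadjusted p of 0.0281 and an adjusted p of 1.0. Colitis against normal gave 0.81 ± 0.39, with an adjusted p of 0.250.

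Macrophage and monocyte markers are given beside Cybb, since they come from cells that express it. The summed FPKM of 10 markers was 152 to 202.6 in normal, 147 to 237 in normal BBR, 226 to 705.2 in colitis and 121 to 255 in colitis BBR mice. None of the 10 was at 0 in any mouse. Lyz2 and Cd14 carried most of the sum, which overlapped between colitis BBR and normal BBR. Singly, Adgre1 (1.12 to 1.53 against 2.75 to 3.0 FPKM), Csf1r (3.13 to 3.56 against 4.85 to 6.89) and Ly6c2 lay wholly below normal BBR, as Cybb did. Cd68 and Itgam lay wholly above normal BBR, and the other markers overlapped. Of these markers, 7 of 10 were lower in colitis BBR than in colitis mice at an unadjusted p of at most 0.05, as were 5.2% of all genes, and none passed the adjusted limit. Their median log2 fold change was -1.14, against -0.09 over all genes. Cybb per 1000 summed marker FPKM, mostly that of Lyz2 and Cd14, was 4.85 to 10.3 in colitis and 3.61 to 7.45 in colitis BBR mice, which overlap. The part of these cells in the Cybb values was not tested. The genes most like Cybb over the 12 mice were Irf5 (r = 0.955), Laptm5 (r = 0.949) and Arrb2 (r = 0.948), all expressed in leukocytes, and within groups these were 0.877, 0.939 and 0.945. Of 8 partners of the phagocyte oxidase, none passed the adjusted limit in any comparison. The cytosolic subunits Ncf1 and Ncf4 had log2 fold changes of 1.06 and 1.46 in colitis against normal, at unadjusted p of 0.0292 and 0.0174.

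**Figure D4:**
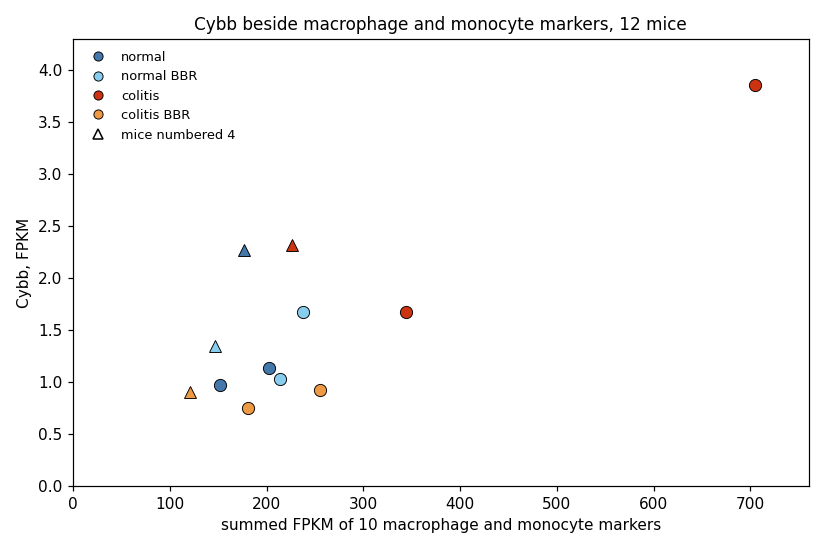
Cybb FPKM against the summed FPKM of 10 macrophage and monocyte markers, 1 point per mouse, 12 mice, with triangles for mice numbered 4. The colitis BBR mice sit at 0.75 to 0.92 FPKM, and colitis mouse 2 has the highest value on both axes, 3.86 FPKM and 705.2.

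Gpx2, the peroxidase, was the most abundant member, at 538.7, 494 and 264 FPKM in normal, 440.6, 505 and 135 in normal BBR, 818, 649.9 and 874 in colitis, and 412, 1813 and 317 in colitis BBR mice. The colitis mice lay above the normal mice, and colitis BBR overlapped every group. Colitis against normal gave 0.91 ± 0.65, with an adjusted p of 0.403, and the average effect of DSS was 0.95 ± 0.46, with an adjusted p of 0.144. In the mice numbered 4 alone, colitis was 3.31 times normal and colitis BBR was 2.35 times normal BBR. Gpx2 was 7.59 to 41.9 times Duox2 in the mice without DSS and 2.56 to 9.74 times with DSS. The highest Gpx2 and the highest Duox2, 1813 and 298 FPKM, were in the same animal, colitis BBR mouse 3. The genes most like Gpx2 over the 12 mice were Npdc1 (r = 0.928), Hsd17b12 (r = 0.926) and Cd14 (r = 0.917), and within groups these were 0.947, 0.905 and 0.932.

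**Figure D5:**
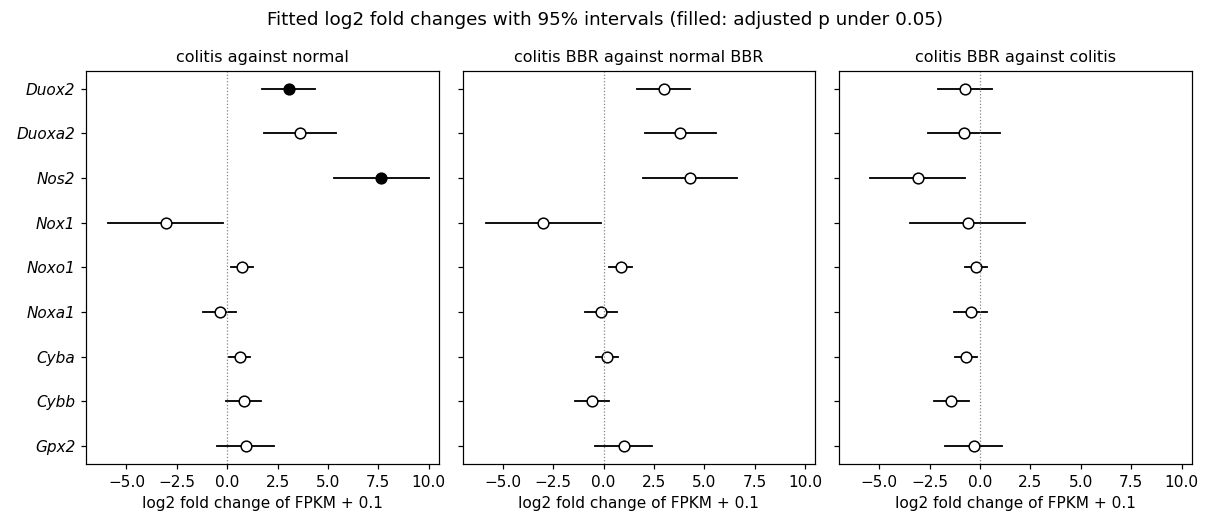
Fitted log2 fold changes of FPKM + 0.1 with 95% intervals for 9 genes in 3 comparisons, with 3 mice per group and filled points for an adjusted p under 0.05. Duox2 and Nos2 are filled in colitis against normal, and all 9 point estimates lie below 0 in colitis BBR against colitis.

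In colitis BBR against colitis, all 9 members had negative log2 fold changes, from -3.10 to -0.18, as did 62% of all genes, and none passed the adjusted limit, which no gene did. At an unadjusted p of at most 0.05 there were 3 of 9 members (Nos2, Cyba and Cybb), against 6.39% of all genes, and Cyba and Cybb did not overlap, against 5.66% of genes lower in that way. The median was -0.70 over the members and -0.09 over all genes. For Duox2 the value was -0.76, with a 95% interval from -2.09 to 0.57, and for Duoxa2 it was -0.80, from -2.58 to 0.99. Without the colitis BBR mouse numbered 4, these became 0.16 and 0.35, and Noxo1 and Gpx2 turned to 0.04 and 0.16.

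Normal BBR against normal asks what BBR did without DSS. No member passed the adjusted limit, which no gene did, and none had an unadjusted p of at most 0.05, against 1.36% of all genes. Duox2 and Duoxa2 were lower in all 3 normal BBR mice than in all 3 normal mice, 2 of 9 members against 5.46% of all genes. Between mice of the same number, Noxo1, Noxa1 and Cyba were also lower in all 3 pairs, which made 5 of 9 members against 13.9% of all genes. All 11 epithelium markers had log2 fold changes below 0 here too, with a median of -0.18 against -0.02 over all genes. Per 1000 summed FPKM of these markers the groups overlapped, at 1.42 to 3.10 in normal and 1.14 to 2.2 in normal BBR mice for Duox2, and 0.867 to 1.67 and 0.453 to 1.34 for Duoxa2. Between mice of the same number, both ratios were lower in normal BBR in all 3 pairs. Krt8 and Krt19 carried most of the sum, with means of 4091 and 3874 FPKM in normal mice. The part of epithelial content in these values was not tested. The log2 fold changes of Duox2 and Duoxa2 were -0.70 ± 0.61 and -0.98 ± 0.82. Noxa1 had -0.71 ± 0.37, with an unadjusted p of 0.0793. The 95% interval for Nos2 ran from -2.10 to 2.61.

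Genes around these enzymes were followed in lists, on the log2 scale throughout. Of 17 genes of nitric oxide and arginine metabolism, 4 rose and 2 fell with DSS averaged over BBR, where 2.85% of all genes rose and 11.4% fell, with a median of -0.42 against -0.36 over all genes. Gch1, which starts synthesis of the NOS cofactor tetrahydrobiopterin, rose by 1.10 (adjusted p = 0.0125), from 8.52 to 13.0 FPKM in normal to 22.5 to 27.2 in colitis mice. Its feedback regulator Gchfr rose by 1.62 (adjusted p = 0.039). Ddah1, which breaks down an endogenous NOS inhibitor, rose by 1.89 (adjusted p = 0.0206). The 2 of 17 that fell are about the same share as among all genes, so their values are given for the single genes only. They encode the soluble guanylate cyclase, the nitric oxide receptor of smooth muscle: Gucy1a1 (-1.72, adjusted p = 0.0399) and Gucy1b1 (-1.67, adjusted p = 0.0405). Smooth muscle markers fell with them, 5 of 6 past the limit with a median of -2.42, and their part was not tested. The other synthases Nos1 and Nos3 had average changes of -0.91 and -0.59, with adjusted p of 0.259 and 0.22.

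Among genes that remove peroxide and superoxide, 1 of 21 rose and 2 fell with DSS averaged over BBR, with a median of -0.09. These 3 of 21 are about the same share as the 14.3% of all genes past the limit, so their values are given for the single genes only. Txnrd1, a thioredoxin reductase, rose by 0.80 (adjusted p = 0.0427). Catalase (Cat) changed by -0.80 (adjusted p = 0.0472) and the mitochondrial peroxiredoxin Prdx3 by -0.61 (adjusted p = 0.0489). Of 4 peroxidases that use hydrogen peroxide, Lpo alone passed the filter. Lpo, lactoperoxidase, measured 1.53 to 2.67 FPKM in normal, 0.21 to 0.60 in normal BBR, 14.2 to 64.3 in colitis and 2.59 to 42.3 in colitis BBR mice, and rose by 4.02 with an adjusted p of 0.00701. Mpo and Epx, peroxidases of granulocytes, were at most 0.23 and 0.06 FPKM in any mouse.

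Of 14 known inducers of these enzymes and factors that act on their genes, 13 were tested. Il6, Il17a and Il22 passed the filter on low values only through the mice with DSS, so their levels are given without a test. Of the other 10, 3 rose with DSS averaged over BBR, against 2.85% of all genes. The cytokine genes Tnf and Il1b rose by 4.75 and 3.76 on the log2 scale, with adjusted p of 0.00153 and 0.0157. Il6 was at most 0.08 FPKM without DSS, 1.49 to 5.48 in colitis and 0.05 to 1.51 in colitis BBR mice. Il17a and Il22 are cytokines of lymphocytes that act on epithelium. Il17a was listed at 0 in all 6 mice without DSS and reached 1.27 FPKM with DSS, and Il22 was at most 0.08 without DSS and reached 1.97. Nfkbiz, a nuclear regulator of NF-kappaB targets, rose by 1.30 with an adjusted p of 0.00843. In colitis BBR against colitis, all 10 of those genes other than Il6, Il17a and Il22 had negative values, as 62% of all genes did. Il1b (-3.06, unadjusted p = 0.0107) was at an unadjusted p of at most 0.05, 1 of 10 against 5.2% of all genes lower in that way, and none passed the adjusted limit. Ifng was at most 0.14 FPKM in any mouse and was not tested.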

How the data were processed

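Rectal RNA of 12 mice was sequenced by the authors, 3 mice in each of 4 groups, with groups and replicate numbers taken from the labels. The study's methods name ribosomal RNA depletion and single-end reads of 50 bases on another sequencer than the labels, which name an Illumina TruSeq kit. Reads were filtered with SOAPnuke 1.5.2 by the methods, and the submitters' processing notes name Bowtie2 2.2.5, RSEM 1.2.12 and build mm9. The table that the authors deposited gives an estimate for every gene in every mouse, taken here to be FPKM, and holds no read counts.

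Genes with a mean of at least 0.1 FPKM (15315 of 17734) were log2 transformed after adding 0.1, and limma 3.58.1 (R 4.3.3) fitted all 12 mice together with a mean for each group and a trended empirical Bayes spread. Benjamini-Hochberg adjustment covered every tested gene, at a limit of 0.05. Single genes were also tested by exact two-sided permutation, within BBR state for the average effect of DSS. Depth was estimated from steps between low values, and the floor set from it covers counting error only. The 95% intervals of fold changes come from the limma standard errors and cover the spread between mice. The fits were tested on simulated data. Summaries and figures were made in Python 3.11.15 (pandas 2.3.3, NumPy 2.4.6, matplotlib 3.10.9, SciPy 1.17.1).

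The members, the lists of related genes and the markers were chosen with earlier results of these data known. Some genes of these lists entered the counts and are not reported here by name, and the 3 genes most like a member by Pearson r were named by rule for Duox2, Nos2, Nox1, Cybb and Gpx2. Same-numbered mice deviated together in normal BBR against normal, with correlations of 0.290, 0.109 and 0.657 over genes for numbers 1, 3 and 4, and the other comparisons share 2 numbers each. The methods name no pairing, and mice of different numbers were not correlated, so these values do not show that the mice were paired. The alternatives changed the pseudocount (1 or 0.01), the filter (none, or a mean of 1), the scaling (quantile, or centring on the median), the samples (only the groups compared, only mice 1 to 3, or all but 1 mouse) and the model (without a trend, or with a block for the replicate number or for the mice numbered 4). The fit with a separate DSS effect for the mice numbered 4 was chosen after seeing the data.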

Additional observations from a re-analysis of the deposited data

Results flagged for a closer look

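A difference between mice was found for Nox1 and Noxa1 in the effect of DSS, taken as the value in the mice numbered 4 minus that in the mice numbered 1 to 3, averaged over BBR. For Nox1 the difference was 4.84 ± 0.88 on the log2 scale (adjusted p = 0.045). For Noxa1 it was 1.58 ± 0.30 (adjusted p = 0.0452). With DSS, the 4 mice numbered 1 to 3 had 6.80 to 15.0 FPKM of Noxa1 and those numbered 4 had 16.8 and 19.7. Without DSS the order was the opposite, 14.6 to 25.0 against 7.79 and 13.9. The test was chosen after these values were seen, and with 2 mice numbered 4 on each side it rests on few animals.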

How the results depend on the processing

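Duox2, Duoxa2 and Nos2 passed the adjusted limit for the average effect of DSS in all 10 other settings and in all 12 fits without 1 mouse, with log2 fold changes of 2.67 to 3.76, 3.24 to 4.62 and 4.91 to 6.69. For Nox1 this held in 4 of 10 settings and 2 of 12 fits. Members past the limit in colitis against normal numbered 2, but 1 with a pseudocount of 0.01, a filter at a mean of 1, centring on the median or no trend, 3 with only the compared groups in the fit (Duoxa2 was added, adjusted p 0.00478), 4 with a block for the mice numbered 4 and 4 in the mice numbered 1 to 3 alone, and 0 to 2 without 1 mouse. There Duox2 had an adjusted p of 0.048 to 0.167 and kept its call only without colitis mouse 4, and Nos2 had 0.0297 to 0.0741. In colitis BBR against normal BBR the count was 2 with the block for the mice numbered 4, 5 in the mice numbered 1 to 3 alone, and 0 to 5 without 1 mouse, the 5 being without colitis BBR mouse 4. In colitis BBR against colitis it was 0 to 1 without 1 mouse, and for the average effect 3 to 5. The cause was not tested.

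With the replicate number as a block, 3 members passed the limit in colitis against normal (Noxo1 at 0.90, adjusted p 0.0424, was added). The count was 0 in both BBR comparisons and in colitis BBR against normal BBR. For the average effect it was 5, where Nox1 became -2.00 (adjusted p 0.073) and Gpx2 1.38 (0.0236). In normal BBR against normal, where both groups hold the same numbers, the block changed no call of a member.

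Values that changed sign were all short of the limit. Noxa1 in colitis BBR against normal BBR became 0.27 under quantile normalization, 0.32 with median centring and 0.16 with the block, and its average DSS effect became 0.07, 0.14 and 0.05. Cybb in normal BBR against normal became 0.01, 0.00 with centring and 0.30 in the mice numbered 1 to 3 alone, and its average DSS effect -0.06 with the block. In those mice alone Gpx2 in colitis BBR against colitis became 0.25, Nos2 in normal BBR against normal -0.15 and Cyba in colitis BBR against normal BBR -0.10. Without 1 mouse, colitis BBR against colitis ranged from -2.01 to 0.83 for Nox1, -1.44 to 0.16 for Duox2, -1.75 to 0.35 for Duoxa2, -0.45 to 0.04 for Noxo1 and -1.10 to 0.16 for Gpx2. Normal BBR against normal ranged from -0.26 to 0.31 for Cybb and -0.76 to 0.19 for Gpx2, colitis BBR against normal BBR from -0.44 to 0.20 for Noxa1 and -0.03 to 0.31 for Cyba, and the average DSS effect from -0.04 to 0.29 for Cybb. The table holds no counts, so depth was estimated only, and Duox1, whose mean lay under the filter, was not tested.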
